A study of Mus musculus with 6 samples.

Results

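The distal chromosome 2 zinc finger cluster is a run of near-identical zinc finger genes toward the end of mouse chromosome 2. Its members were taken as every protein-coding gene in the deposited count table that lies wholly between 174 and 178.5 Mb of that chromosome and whose name begins with Zfp or Gm. The rule gave 46 genes, 11 named Zfp and 35 named Gm, of 21969 protein-coding genes and 54446 genes of all kinds. The interval was chosen by a measured value, the low counts of Zfp970 in the knockout libraries, so the genotype comparison itself set the members. Their values between genotypes are a description, and no call on them is read as a test.

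Most genes of this kind encode KRAB zinc finger proteins. In such a protein a row of C2H2 fingers, each folded around a zinc ion, reads a DNA sequence, and the KRAB box at the amino end binds the corepressor TRIM28, which brings in the histone methyltransferase SETDB1 and silences the bound DNA. Many of the targets are transposable elements. The genes multiply by tandem duplication, differ between mouse strains in copy number and sequence, and are known for low transcript levels in adult tissues.

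The libraries measured poly-A RNA from jejunum-ileum epithelium of mice 3 to 4 months old. The 3 controls were Prkci flox/flox. The 3 knockouts were Prkci flox/flox carrying Villin-CRE, a Cre recombinase driven by the Villin promoter, which is active in intestinal epithelial cells, so that all 6 mice carried the floxed allele of the atypical protein kinase C gene Prkci and Cre was present in the knockouts alone. The mice were housed together, the series text calls the knockout mice endogamic, and no source used here gives the strain background. The material was bulk RNA from washed mucosa, in which fewer cells of a type and less RNA per cell cannot be told apart.

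Libraries held 18972906 to 26687856 counts in genes, so that 1 count was worth 0.0400 to 0.0506 CPM (the count scaled by library size with trimmed-mean factors). Prkci was at 44.6, 46.9 and 44.0 CPM in controls 1 to 3 and at 21.5, 14.6 and 21.4 CPM in knockouts 1 to 3, with no overlap between genotypes. Its log2 fold change of -1.24 (SE 0.17, n = 3 per group) had an edgeR adjusted p of 0.0719. The library of knockout 1 stood apart: on the first principal component, which held 54.7% of the variance, it scored -21.9, beside -33.3 to -30.4 for the controls and 50.9 and 68.0 for the other knockouts. Counts of Xist and Ddx3y went against the sex in the series text for 3 libraries, control 2, control 3 and knockout 3. Xist had 31810 counts in control 3, 23534 in knockout 2 and 33757 in knockout 3, and 9 to 12 in the others. By these counts those 3 libraries were female, and knockout 1 was the only male knockout. Sex was thus not balanced between the genotypes. All 8 of 8 T cell markers had a positive log2 fold change, and their summed level was 159 to 270 CPM in controls and 325 to 711 CPM in knockouts. Every tested marker of the other non-epithelial lists also had a positive log2 fold change, with 8 macrophage and dendritic cell genes, 7 of B and plasma cells, 6 of fibroblasts, 5 of smooth muscle and 2 of endothelium. Their summed levels gave knockout to control ratios of 1.26, 3.53, 2.97, 1.19 and 3.19 in that order, beside 2.36 for T cells. The 15 epithelial markers were all detected, and 12 had a positive and 3 a negative log2 fold change. Their summed level was 47681 to 55181 CPM in controls and 48459 to 68413 CPM in knockouts, a ratio of 1.18.

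The label holds for most of the members. Of the 46, 44 form a single array at chr2:175010241-178078476 (mm10, named GRCm38.p6 in the reference), 3.07 Mb long, with 21 genes on the plus and 23 on the minus strand. In the annotated coding sequence, 37 of these 44 hold at least 1 C2H2 finger, with a median of 11 over the 44 and a maximum of 25 in Gm14295, and 40 hold the core residues of the KRAB box. The exceptions for the KRAB core are Gm11009, Gm14408, Gm14409 and Zfp972. Gm20721 at chr2:174330319-174346712 and Zfp831 at chr2:174643534-174710832 are members by name and place only. Gm20721 runs antisense inside Gnas and encodes no finger, and Zfp831 has 2 fingers of this pattern and no KRAB core. One more protein-coding gene of the array, 2210418O10Rik, falls outside the rule by its name and had 0 counts in every library.

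The start of the array genes shows how alike they are. The 3 promoters printed here belong to Zfp970, the gene with the lowest log2 fold change of the members tested, its neighbour Gm14403, and Zfp971, the member with the most counts. Each run goes from 250 bases before to 50 bases after the RefSeq start on GRCm38.p6, on the plus strand. Capitals mark CCAAT or its reverse complement ATTGG, the letters of a common promoter element.
Zfp970 chr2:177464492-177464791: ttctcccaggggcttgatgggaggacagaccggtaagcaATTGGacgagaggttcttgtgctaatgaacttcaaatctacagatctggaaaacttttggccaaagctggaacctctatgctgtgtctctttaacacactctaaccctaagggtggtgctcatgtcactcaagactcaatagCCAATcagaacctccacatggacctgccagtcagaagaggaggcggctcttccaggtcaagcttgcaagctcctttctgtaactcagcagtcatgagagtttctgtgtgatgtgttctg
Gm14403 chr2:177497976-177498275: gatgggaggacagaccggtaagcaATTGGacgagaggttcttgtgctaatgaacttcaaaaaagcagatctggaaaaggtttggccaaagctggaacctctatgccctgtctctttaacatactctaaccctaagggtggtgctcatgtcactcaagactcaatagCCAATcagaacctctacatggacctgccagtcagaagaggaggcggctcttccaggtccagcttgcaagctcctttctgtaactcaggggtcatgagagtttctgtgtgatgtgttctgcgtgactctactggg
Zfp971 chr2:178023034-178023333: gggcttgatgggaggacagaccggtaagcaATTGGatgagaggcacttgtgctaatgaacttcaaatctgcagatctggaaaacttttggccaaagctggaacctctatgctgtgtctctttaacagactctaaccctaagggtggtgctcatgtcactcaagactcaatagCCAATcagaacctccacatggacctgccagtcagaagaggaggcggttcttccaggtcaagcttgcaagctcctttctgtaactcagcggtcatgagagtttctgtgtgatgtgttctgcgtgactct
Over aligned bases, the Zfp970 promoter was 95.4% identical to that of Gm14403 and 97.6% to that of Zfp971. RefSeq held a promoter for 30 members, and 25 of the 29 others matched Zfp970 over more than 94% of aligned bases (median 95.4%, range 57.0% to 99.6%). CCAAT on either strand was found in 28 of the 30 (93.3%) and in 37.3% of 32782 promoters of other genes. A run of 91 bases, picked as the longest shared letter for letter by most of the array promoters, was present in 19 of the 30 and in 0 of the 32782 others. It begins 114 bases before the start in Zfp970 and 123 bases before it in Zfp971, and it is not in the Gm14403 window as an exact match. High and low members thus carry nearly the same promoter letters in the reference genome.

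The fingers repeat the likeness at the coding level. Shown are 84 bases, 1 finger with the linker to the next, from GENCODE M21 transcripts: finger 2 of 14 in Zfp970, and the finger with the fewest differences from it in Gm14403 (finger 6 of 9) and in Zfp971 (finger 8 of 12). Capitals mark bases that differ from Zfp970.
Zfp970: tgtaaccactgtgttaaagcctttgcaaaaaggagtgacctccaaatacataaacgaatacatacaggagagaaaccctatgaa
Gm14403: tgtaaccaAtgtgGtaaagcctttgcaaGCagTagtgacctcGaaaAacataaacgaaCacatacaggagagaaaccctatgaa
Zfp971: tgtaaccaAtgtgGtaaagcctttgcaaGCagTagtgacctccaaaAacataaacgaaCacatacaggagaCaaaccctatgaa
With positions counted from 1 at the 5′ end, Gm14403 and Zfp971 each differ at 8 positions, and share C9A, T14G, A29G, A30C, G33T, T47A and T59C. C43G is in Gm14403 alone and G72C in Zfp971 alone. Across the array, coding sequence matched that of Zfp970 over 86.9% to 100% of aligned bases, with a median of 89.8%. Gaps do not count in this measure. The 100% was in Gm14327, annotated with 64 residues and no finger, where Zfp970 has 522 residues. The 2 members outside the array gave 73.6% (Zfp831) and 64.2% (Gm20721). What unrelated coding sequence would give in this measure was not tested, so these 2 values do not show kinship with Zfp970.

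This likeness bears on what the counts can hold. Each gene's annotated transcripts were split into words of 50 bases, and the share of words found in no other gene's transcripts on either strand was taken as its unique sequence. The median was 13.3% for the 46 members, beside 100% for the other genes of the interval and for the genes within 2 Mb on either side, 83.2% and 34.2% for the zinc finger clusters on chromosomes 13 and 4, and 98.4% for all 386 Zfp genes outside the interval, some of which lie in those 2 clusters. The handling of reads that match several genes is not given in the sources used here. The unique sequence of a member is therefore given beside its counts.

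Detection followed the unique sequence in part. Of the 46 members, 20 had 0 counts in every library, and all 20 lie in the array. For counting error alone, 0 allows up to 0.120 to 0.152 CPM (3 counts per library), but it sets no limit for genes whose shared reads may have been dropped. Another 14 had 1 to 45 counts over the 6 libraries, with a median of 4.5, and did not pass the filter on low counts, and 12 passed it. The median unique share was 1.74% (range 0% to 56.9%) for the 20 without counts, 9 of which had no unique word at all. It was 43.7% for the 14 with few counts and 27.7% (11.1% to 76.7%) for the 10 array members that passed. Gm4631, at 56.9% unique with 0 counts, and Gm14391, at 64.2% unique with 1 count, show that unique sequence and counts did not always go together.

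**Figure D1:**
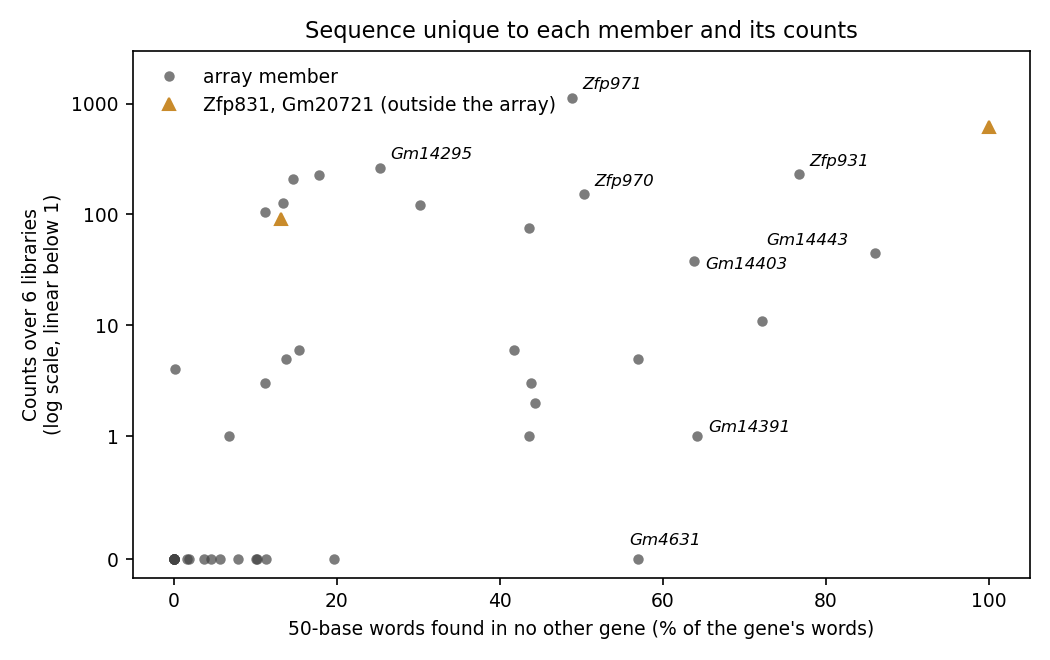
Each point is 1 member, with the share of its 50-base words found in no other gene (%) on the x axis and its counts summed over 6 libraries on the y axis (log scale, linear below 1). The 20 members at 0 counts sit mostly at the left edge, Zfp970 is at 50.3% unique and Gm14403 at 63.9%.

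Zfp970 (ENSMUSG00000078866.10, chr2:177464733-177478129, plus strand) encodes a KRAB protein with 14 fingers. It had 41, 40 and 47 counts in controls 1 to 3 and 7, 8 and 10 counts in knockouts 1 to 3, which is 1.80, 1.67 and 1.97 CPM against 0.354, 0.349 and 0.400 CPM. The highest knockout was far below the lowest control, and the 3 libraries of each genotype lay close together, knockout 1 included. The mean was 1.81 ± 0.150 CPM (SD, n = 3) in controls and 0.368 ± 0.0285 CPM in knockouts, so that knockouts stood at 0.204 of controls (95% counting interval 0.127 to 0.315, which covers counting error only). The log2 fold change was -2.28 (SE 0.27), and -2.26 without knockout 1.

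The sequence unique to Zfp970 made up 50.3% of its words of 50 bases, 69.6% of those of 75 and 82.6% of those of 100. The genes that shared most of its 50-base words were Gm14288, with 27.8%, then Gm14440, Zfp968, Zfp966 and Zfp969, with 24.0% to 26.0%. All 5 had 0 counts in every library of both genotypes. Gm14288, Gm14440 and Zfp969 had no unique 50-base word, Zfp968 had 4.53% and Zfp966 10.0%, so their counts depend on how shared reads were treated, and the part of shared reads in the counts of Zfp970 was not tested.

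Gm14403 (ENSMUSG00000094786.1, chr2:177498215-177509763, plus strand), a KRAB gene with 9 fingers, is the next member along the chromosome, 20085 bases past the end of Zfp970. It had 11, 7 and 15 counts in controls and 1, 2 and 2 in knockouts. Here too the genotypes did not overlap, but the knockout values are near the level of single counts. Over its 33 control and 5 knockout counts the scaled ratio was 0.158 (0.0482 to 0.407). The gene did not pass the filter on low counts, and in the fit with no filter its log2 fold change was -2.56 (SE 0.65). Its sequence was 63.9% unique in 50-base words, and it shared 2.92% of them with Zfp970. Together the pair summed to 2.29, 1.96 and 2.60 CPM in controls and 0.405, 0.436 and 0.481 CPM in knockouts.

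The genes on either side of this pair were scarcely detected. Gm14418, which lies before Zfp970, and Gm14406 and Gm14322, which follow Gm14403, had 1, 3 and 4 counts in the 3 controls when summed, and 0 in each knockout. These 3 were named after their values were seen, and so few counts allow no statement on each gene.

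**Figure D2:**
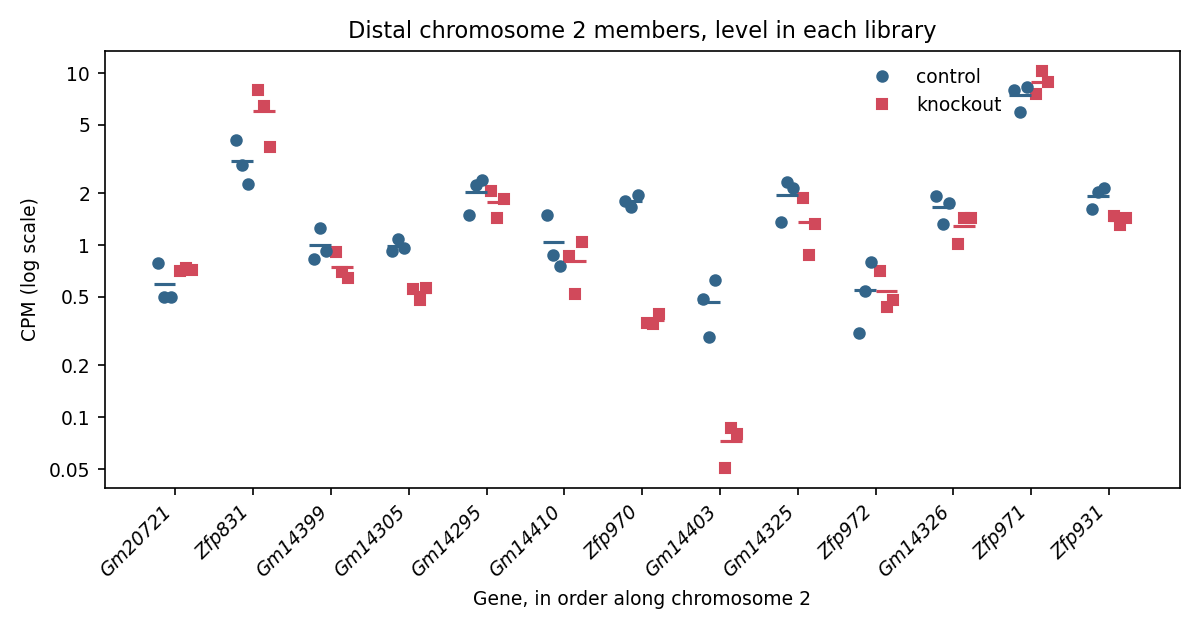
Level of each member in each library (CPM, log scale), for the 12 members that passed the filter and Gm14403, in order along chromosome 2; dots are controls, squares knockouts, and lines the group means. Zfp970 and Gm14403 show the widest gap between genotypes, and most other members overlap.

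Among the other members that passed, Gm14305 and Zfp931 were also lower in every knockout than in every control. Gm14305 (chr2:176708328-176721813, 14 fingers with a KRAB core) had 21, 26 and 23 counts in controls and 11, 11 and 14 in knockouts, 0.990 ± 0.0831 against 0.532 ± 0.0458 CPM. Its log2 fold change was -0.89 (SE 0.27), and its scaled ratio was 0.537 (0.349 to 0.813). Only 11.1% of its 50-base words were unique, the least among the array members that passed. In words of 75 and 100 bases its share was 19.9% and 30.8%, and Gm14410 was lower at 19.6% and 24.8%. Gm14305 also overlaps Zfp973 on the same strand, so reads of the 2 genes can be hard to tell apart. Zfp973 itself had 0, 4 and 1 counts in controls and 1, 0 and 0 in knockouts. Zfp931 (chr2:178067695-178078476, 7 fingers with a KRAB core) closes the array and, at 76.7%, had the most unique sequence of the array members that passed. It had 37, 49 and 51 counts in controls and 29, 30 and 36 in knockouts, a log2 fold change of -0.46 (SE 0.24).

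Another 5 KRAB genes of the array overlapped between genotypes, each with a negative log2 fold change and 9 to 25 fingers. Gm14399 (chr2:175129493-175142012) had 19, 30 and 22 counts in controls and 18, 16 and 16 in knockouts, a log2 fold change of -0.43 (SE 0.31). Gm14295 (chr2:176798612-176811223), the gene with 25 fingers, had 34, 54 and 57 against 41, 33 and 46 counts, a log2 fold change of -0.20 (SE 0.28). These differences lie within the spread of their libraries. Gm14410 (chr2:177183453-177206421) had 34, 21 and 18 against 17, 12 and 26 counts, a log2 fold change of -0.36 (SE 0.40). Its sign rested on control 1, without which the log2 fold change was 0.01. Gm14325 (chr2:177831791-177840336) had 31, 56 and 51 against 37, 20 and 33 counts, a log2 fold change of -0.53 (SE 0.36). Gm14326 (chr2:177935993-177957297) had 44, 32 and 42 against 20, 33 and 36 counts, a log2 fold change of -0.36 (SE 0.28). In each of the 5, at least 1 knockout library was above the lowest control in CPM. For Gm14399 this overlap appears only after scaling, with 0.911 CPM in knockout 1 and 0.836 CPM in control 1.

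Zfp972 and Zfp971, near the far end, did not share the low knockout counts. Zfp972 (chr2:177903340-177925613), annotated with neither a finger nor the KRAB core, had 7, 13 and 19 counts in controls and 14, 10 and 12 in knockouts, a log2 fold change of -0.03 (SE 0.43) whose sign changed with the setting. It overlaps Gm14327 on the opposite strand. Zfp971 (chr2:178023284-178034022, 12 fingers with a KRAB core) had by far the most counts of the array, 182, 143 and 198 in controls and 149, 237 and 220 in knockouts. Its log2 fold change was 0.26 (SE 0.20) with overlapping genotypes. Per length of exon, at 3.80 CPM per kb over all libraries, it was above the other array members that passed, which ran from 0.304 CPM per kb in Gm14305 to 1.02 CPM per kb in Gm14325.

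The 2 members outside the array were higher by fold in knockouts. Zfp831 had 4.09, 2.92 and 2.26 CPM in controls and 7.94, 6.45 and 3.72 CPM in knockouts, so that knockout 3 lay inside the range of the controls. Its log2 fold change was 0.96 (SE 0.34), and 0.72 without knockout 1. The T cell list and the other lists of non-epithelial cells were also higher by fold in the knockouts, as given above, and their part in this difference was not tested. Gm20721 had 18, 12 and 12 counts in controls and 14, 17 and 18 in knockouts, a log2 fold change of 0.28 (SE 0.32), and 13.2% of its words were unique. No source used here says whether the counting used strand, so its counts cannot be told apart from those of Gnas, which stood at 227 to 265 CPM in all 6 libraries.

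Of the 14 members with few counts, Gm14443 had the most. It encodes 16 fingers, its sequence was 86.0% unique, and it had 8, 7 and 11 counts in controls and 6, 5 and 8 in knockouts, which overlap. Gm14412 had 0, 4 and 2 against 3, 0 and 2 counts. Gm14393 had 0, 2 and 3 against 1, 0 and 0 counts. Gm14322, given above only in a sum, had 0, 2 and 3 against 0, 0 and 0 counts. With Gm14403 and Zfp973, given above, these are the 6 with the most counts. Gm14401, level with Gm14322 at 5 counts in all, had 2, 1 and 1 against 0, 0 and 1 counts. In CPM, Gm14403 and Gm14401 did not overlap between genotypes and the others did, but Gm14401 rests on a step of 0.0400 against 0.0417 CPM, which is 1 count in each library.

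**Figure D3:**
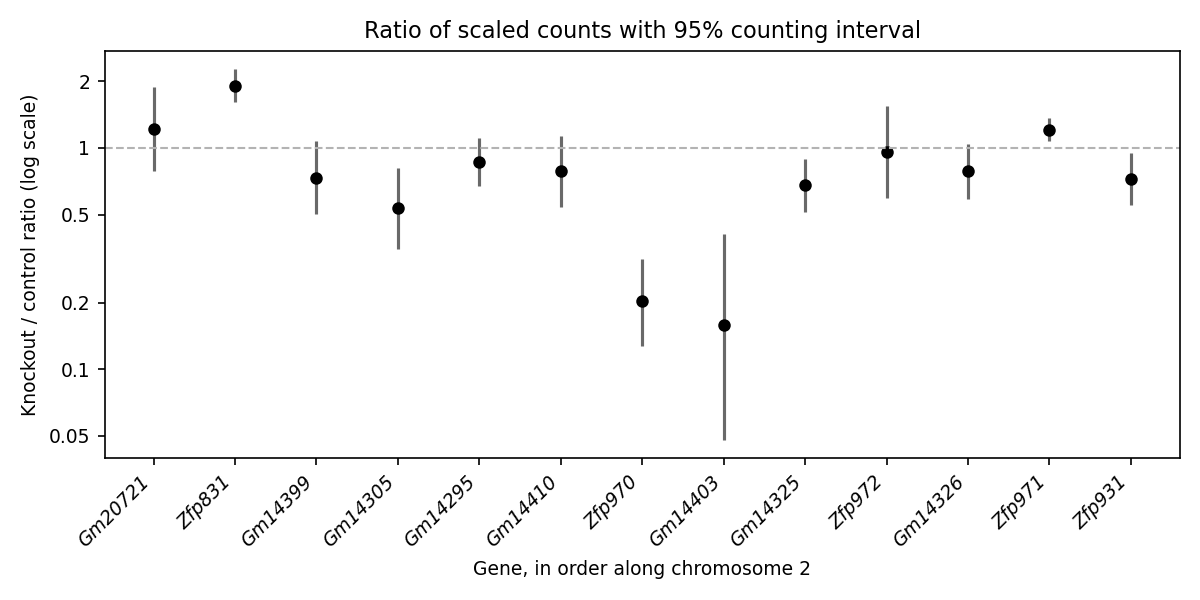
Ratio of summed counts, knockout over control, scaled by library size (log scale), for the same 13 members in order along chromosome 2, with 95% intervals that cover counting error only. Zfp970 at 0.204 and Gm14403 at 0.158 stand lowest, and Zfp831 at 1.91 highest.

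Counts over the members follow from how they were chosen and are set beside all genes. Among the 12 members that passed the filter, 9 (75.0%) had a negative log2 fold change, beside 49.3% of all 15068 genes tested. The median was -0.36, beside 0.006 for all genes. Of the 12, 3 were lower with no overlap between genotypes, beside 11.7% of all genes, and 0 were higher, beside 10.0%. No member had an edgeR adjusted p under 0.05, beside 0.0597% of all genes in either direction (9 genes, and 0 in the fit with the replicate number as a block) and 0.00664% lower. At an unadjusted p under 0.05, 2 were lower and 1 higher, beside 7.09% of all genes lower and 16.4% in either direction. DESeq2 called 1 member lower, Zfp970, where it called 1.95% of all genes lower and 5.55% in either direction. Without knockout 1, edgeR called 2 members lower, Zfp970 and Gm14403, of 13 that passed, where it called 7.44% of all genes lower and 17.5% in either direction. In the same fit 10 of the 13 had a negative log2 fold change, beside 51.6% of all genes, and 5 of the 12 members lay below the controls without overlap, beside 26.6%. The rule used this contrast, and some members, Zfp970 and Gm14403 among them, passed a filter only through the controls where they were high. These counts therefore describe the members that passed, not all 46, and nothing is read from them.

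Summed over the 44 array members, the level was 20.9, 20.6 and 23.8 CPM in controls and 18.0, 18.2 and 18.6 CPM in knockouts. The 3 knockouts lay below the 3 controls, and the scaled ratio was 0.842 (counting interval 0.780 to 0.908). Without Zfp970 and Gm14403 the ratio was 0.917 (0.848 to 0.992). Zfp971 held a large share of that sum, and with it left out as well the ratio was 0.738 (0.664 to 0.821). Zfp971 was left out with its values known. Its own ratio of 1.21 was above that of the sum, so leaving it out had to lower the ratio. The array thus held a lower sum in the knockouts both with and without the pair, while its most counted gene had a ratio of 1.21. Summed in the same way, the ratio was 0.914 (0.910 to 0.918) for the Zfp genes outside the interval, 0.859 (0.835 to 0.884) for the chromosome 13 cluster and 0.869 (0.799 to 0.945) for the chromosome 4 cluster. Lower sums were thus seen in other zinc finger genes too, though not in each knockout library. For the Zfp genes outside the interval, knockout 1 (5032 CPM) lay within the controls (5031 to 5161 CPM). So did knockout 1 in the chromosome 13 cluster (148 CPM, controls 147 to 160 CPM). In the chromosome 4 cluster the 3 knockouts (14.4 to 15.9 CPM) lay below the controls (16.8 to 18.4 CPM). The intervals cover counting error only.

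The genes around the array were set beside it. Of 15 protein-coding genes in the interval with other names, 8 were tested. edgeR gave none of the 8 an adjusted p under 0.05, 1 was higher and 1 lower at an unadjusted p under 0.05, and DESeq2 called 1, Edn3. Edn3, which encodes the secreted peptide endothelin 3 and is the nearest such gene before the array, was at 53.6, 54.0 and 50.9 CPM in controls and 74.8, 75.9 and 69.2 CPM in knockouts. Its log2 fold change was 0.47 (SE 0.09, edgeR adjusted p 0.113), the opposite sign to Zfp970. Phactr3, the nearest gene past the array, had 0 counts in every library. Ppp1r3d, a gene past the array that had too few counts to be tested and was singled out after its values were seen, had 7, 12 and 9 counts in controls and 4, 2 and 3 in knockouts, a ratio of 0.335 (0.139 to 0.731) with no overlap. Of 38 genes within 2 Mb on either side of the interval, 25 were tested, and edgeR called 0 of them, with 2 higher and 3 lower at an unadjusted p under 0.05. DESeq2 called 1 there, Zbp1, a sensor of nucleic acids, at a log2 fold change of 1.93 (SE 0.37, edgeR adjusted p 0.113). The median log2 fold change was -0.02 for the neighbours and -0.06 for the flanks.

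Zinc finger genes elsewhere also had more negative than positive values. Of 386 Zfp genes outside the interval, 310 were tested, 224 of these (72.3%) had a negative log2 fold change, and the median was -0.16. Without overlap, 78 (25.2%) were lower and 17 higher. None was called by edgeR, 39 were lower and 10 higher at an unadjusted p under 0.05, and DESeq2 called 12 lower and 1 higher. The most abundant, Zfp106, had a log2 fold change of -0.12 (SE 0.13, edgeR adjusted p 0.661). In the tandem cluster on chromosome 13, 23 of 25 tested genes were negative with a median of -0.18, and its most abundant gene, Zfp738, was at -0.19 (edgeR adjusted p 0.598). In the cluster on chromosome 4, 4 of 5 tested genes were negative with a median of -0.17, and its most abundant gene, Zfp933, was at -0.18 (edgeR adjusted p 0.624). Beside these stand 9 of 12 negative values among the members, with a median of -0.36, and 9 of 10 (90.0%) among those of the array alone, with a median of -0.39. Lower without overlap were 3 of the 12 members (25%), or 3 of 10 in the array alone, beside 25.2% of the other Zfp genes. The chromosome 13 cluster had 6 of 25 tested genes lower and 0 higher, and the chromosome 4 cluster 1 of 5 lower and 0 higher. The flanks had 5 of 25 lower and 2 higher, and the neighbours 0 of 8 lower and 1 higher. The difference between these groups of genes was not tested.

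**Figure D4:**
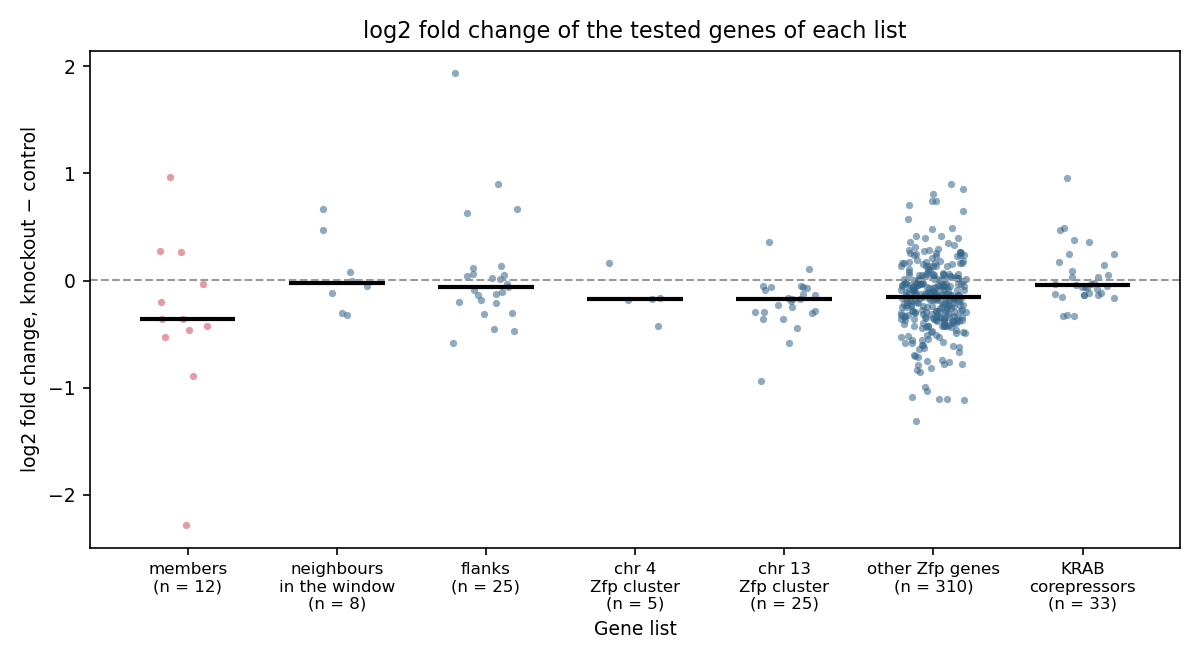
log2 fold change (knockout minus control) of each tested gene, 1 dot per gene, by list; black lines are medians and the dashed line the median of all 15068 genes tested. Zfp970, around which the interval was chosen, is the lowest dot of the members at -2.28, and the lowest other Zfp gene is at -1.31.

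The genes that encode the partners of KRAB proteins gave no call. Of 34 corepressor and silencing genes, 33 were tested, 20 had a negative log2 fold change, and edgeR called 0, with 1 higher and 0 lower at an unadjusted p under 0.05. DESeq2 called 0 as well. Trim28, the corepressor that KRAB boxes bind, was at 39.5, 64.2 and 39.6 CPM in controls and 39.2, 45.8 and 43.5 CPM in knockouts (log2 fold change -0.16, SE 0.20, edgeR adjusted p 0.719), and the sign turned without control 2. Setdb1, the histone methyltransferase recruited through it, had a log2 fold change of -0.05 (SE 0.10, edgeR adjusted p 0.829). Chd3, a remodelling ATPase and the most abundant of the list, had a log2 fold change of -0.14 (SE 0.35, edgeR adjusted p 0.871), whose sign changed without control 1 or knockout 2. A p above the threshold does not show that the levels were the same.

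Values that bear on strain and on shared reads are given with no verdict. Nnt, Glo1 and Alad, 3 genes known to differ in copy number or in a deletion between mouse strains, gave no edgeR call. Glo1 was lower in each knockout (20.3, 27.1 and 26.0 CPM) than in each control (27.3, 30.1 and 32.2 CPM), with an edgeR adjusted p of 0.377, while Nnt and Alad overlapped. The strain at the array was not tested, since the count table holds no sequence variants. Among 40 pseudogenes annotated inside the array, 32 had 0 counts in every library, and the most counted, Gm14429, had 10, 9 and 3 counts in controls and 2, 6 and 4 in knockouts. The part of shared reads in these counts was not tested.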

How the data were processed

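Poly-A RNA-seq of 6 mice, 3 per genotype, was analysed from the authors' deposited counts per gene. STAR 2.5.0a, the mm10 build, Trim Galore, FastQC and bcl2fastq 2.17 were used, per the submitters' processing notes; no source used here gives the counter, its strand setting or its handling of multiply mapped reads. Gene IDs matched GENCODE M21 for 53229 of 54446 rows and for all 46 members, with the same coordinates. The members and gene lists were chosen with earlier results of these data known.

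Here, CPM used library totals with TMM factors. The fit over all genes was edgeR 4.0.16 (R 4.3.3; quasi-likelihood F test, two-sided, filterByExpr with a minimum count of 10, 15068 genes tested, Benjamini-Hochberg threshold 0.05). DESeq2 1.42.0, limma 3.58.1 voom and other alternatives are in the closing section. On simulated counts for these 15068 genes, edgeR recovered 39% of 2-fold and 85% of 4-fold changes, and 6.77% of its calls were false. The simulated counts were drawn gene by gene with the same mean in every knockout, so no library stood apart as knockout 1 did. These shares may therefore not hold for the real libraries. Same-numbered control and knockout libraries deviated together (r = 0.117, 0.119 and 0.149; other pairs -0.143 to 0.00929), and every same-number r was above 0.1, so a fit with the number as a block was run beside the unpaired fit that gave the printed values; the labels do not say what a number marks. No 2 libraries were alike within counting noise (lowest chi-square per gene 24.0). The labels give each library its own number, taken here as a separate mouse, and p-values measure the spread among these 6 libraries. Counting intervals are exact binomial at 95%. Fingers were matched as 2 cysteines and 2 histidines spaced 12 residues apart at the centre, and alignments used Biopython 1.88. Values in every library are given for members that passed the filter and the 6 others with the most counts, and from each other list for called genes or else the most abundant; Trim28, Setdb1, Zbp1 and the strain genes fall outside that rule.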

Additional observations from a re-analysis of the deposited data

How the results depend on the processing

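With 3 mice per genotype, few counts per member and shared sequence, the values of single members are imprecise. The log2 fold change of Zfp970 lay between -2.40 and -2.22 over 15 alternatives. Genes called over the whole table numbered 9, and 836 with DESeq2, 284 with no filter, 16 with library totals, 5 with voom, 4 with sex as in the series text as a term, 0 with the replicate block, and 0 to 2700 when each library was left out in turn: 2700 without knockout 1, 13 without knockout 2, and 0 without control 1, 2 or 3 or without knockout 3. With sex by Xist counts as a term, 11 genes were called over the whole table, and Zfp970 was at -2.33. Library totals moved the median log2 fold change of all genes to -0.10 and the negative share to 62.5%, with 9 members still negative. Members with a negative log2 fold change numbered 21 of 26 with no filter and 5 of 7 with at least 1 CPM in 3 libraries, and 8 to 10 with a library left out. Members lower without overlap numbered 4 with library totals and 3 to 6 with a library left out (6 without control 1, 5 without knockout 1). DESeq2 called 1 neighbour, 1 flanking gene and 13 other Zfp genes, and no filter gave 1 flanking gene and 1 other Zfp gene. With a library left out, neighbours called were 0 to 2, flanking genes 0 to 4, other Zfp genes 0 to 30 and KRAB partners 0 to 2, the highest without knockout 1. Prkci, with a log2 fold change of -1.33 to -1.06 with a library left out, was called with no filter (-1.22, adjusted p 0.0102), with DESeq2 (-1.23, 9.92e-08) and without knockout 1 (-1.33, 0.00345). With the replicate block its log2 fold change was -1.26 and that of Zfp970 was -2.28. The block took the calls over the whole table from 9 to 0. Neighbours, flanking genes, other Zfp genes and KRAB partners stayed at 0 calls. With a library left out, Chd3 ran from -0.63 (without knockout 1) to 0.14 (without knockout 2), with 0.05 without control 1, and Trim28 from -0.28 to 0.11 (without control 2); the sign of Zfp972 changed in 4 settings. The cause of these changes was not tested.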

Other observations

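Of the 12 other Zfp genes that DESeq2 called lower, 6 lie on chromosome 17, which holds 44 of the 310 tested. They were singled out after their values were seen, so they are a description with no test. Zfp942, Zfp943 and Zfp758, which lie next to each other in that group, serve as examples. Zfp942 was at 31.4, 30.5 and 27.6 CPM in controls and 18.3, 14.3 and 19.3 CPM in knockouts, a log2 fold change of -0.79 (SE 0.15, edgeR adjusted p 0.11). Zfp943 was at 24.9, 20.6 and 22.0 against 13.3, 11.3 and 15.2 CPM, a log2 fold change of -0.76 (SE 0.15, edgeR adjusted p 0.117). Zfp758 was at 14.3, 13.1 and 13.7 against 7.13, 6.40 and 9.21 CPM, a log2 fold change of -0.85 (SE 0.17, edgeR adjusted p 0.117). In all 3, the genotypes did not overlap, and knockout 1 was low with the others.

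Of the 6 genes, Zfp820, Zfp942, Zfp943, Zfp758 and Zfp946 lie within chr17:21816885-22456689, and Zfp871 lies apart at chr17:32771236-32788287. Most of the stretch that the 6 genes span, chr17:21816885-32788287, thus lies between Zfp946 and Zfp871. Over that whole stretch, 16 Zfp genes were tested. Of these, 11 had a negative log2 fold change, 8 were lower and 1 higher without overlap, and the median was -0.35. The 6 genes that set the stretch are all among the 11 and among the 8. These counts and the median were therefore partly fixed by that choice. The 174 tested protein-coding genes of other names in that stretch had a median of 0.006, with 14 lower and 12 higher without overlap. Unlike the chromosome 2 array, these Zfp genes had a median of 94.3% unique 50-base words. Glo1, the strain-variable gene that was lower in each knockout without an edgeR call, lies in the same stretch. Its place was looked up after its values were seen, and genes of other names there went both ways, as given. The strain at this stretch was not tested.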
